A study of Mus musculus with 6 samples.

Results

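The cluster of olfactory receptor and beta-globin genes on mouse chromosome 7 was taken as every non-control array probe whose mm9 position lies between 109.5 and 116.1 Mb. Of the 174638 non-control probes of the array, 1882 lie there. They were grouped into regions, runs of 3 or more probes whose starts lie at most 500 bp apart. This gave 260 of the 22574 regions of the array, holding 1830 of the probes, while 34 shorter runs with 52 probes were left out. The regions hold a median of 8 probes over 1613.5 bp and start a median of 17.3 kb apart, the first at chr7:109588921 and the last ending at chr7:116078398. The 8 neighbouring regions between 110.9 and 111.0 Mb are called the beta-globin stretch here.

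DNA methylation was measured in hypothalamic tissue of mouse offspring at 16 weeks of age by methylated DNA immunoprecipitation (MeDIP), in which an antibody against methylated cytosine enriches methylated fragments. The MeDIP DNA (Cy5, red) and the input DNA of the same sample (Cy3, green) were hybridised together to 1 array per sample. In the inulin group (3 arrays) the dams had received inulin, a plant fibre that gut bacteria ferment. In the obesity group (3 arrays) the dams were obese, and the labels name a maternal high fat diet. The diet of the inulin dams, the strain, the sex and the litters are not given in the labels, so p-values measure only the spread between these samples, which may be technical.

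Olfactory receptor genes form the largest gene family of the mouse. Each codes for an odorant receptor with its coding sequence in 1 exon, and each olfactory sensory neuron of the nose expresses very few of them. The beta-globin genes code for the beta-type chains of haemoglobin and are active in red blood cell precursors, and in mammals they lie inside a large cluster of olfactory receptor genes. DNA of this kind is poor in CG dinucleotides, the sites of most methylation in mammalian DNA, and MeDIP enriches a fragment according to how many methylated cytosines it carries.

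In RefSeq (GRCm38.p6), the 6 beta-globin genes lie in the order Hbb-bt, Hbb-bs, Hbb-bh3, Hbb-bh2, Hbb-bh1 and Hbb-y. All 25 nearest protein-coding genes on the side of Hbb-bt are olfactory receptor genes, beginning with Olfr67. On the side of Hbb-y, 18 of 25 are, beginning with Olfr66. That build differs from the mm9 build of the array, so no region is assigned to a gene. To show how few methylation sites such DNA offers, the 250 bases before the start of the 4 beta-globin genes with a RefSeq promoter entry and of the flanking olfactory receptor genes are printed, 5′ to 3′ on each gene's strand, with every CG dinucleotide in capitals.
Olfr67: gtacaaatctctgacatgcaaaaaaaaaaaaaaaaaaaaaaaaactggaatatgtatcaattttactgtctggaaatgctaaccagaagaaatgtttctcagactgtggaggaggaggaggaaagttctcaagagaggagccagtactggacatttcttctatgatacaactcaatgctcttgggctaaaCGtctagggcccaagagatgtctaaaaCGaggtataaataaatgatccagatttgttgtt
Hbb-bt: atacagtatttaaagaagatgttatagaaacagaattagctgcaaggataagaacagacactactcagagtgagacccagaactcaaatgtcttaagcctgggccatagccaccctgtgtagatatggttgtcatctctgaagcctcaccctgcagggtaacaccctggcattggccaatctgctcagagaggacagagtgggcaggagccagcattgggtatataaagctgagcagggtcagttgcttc
Hbb-bs: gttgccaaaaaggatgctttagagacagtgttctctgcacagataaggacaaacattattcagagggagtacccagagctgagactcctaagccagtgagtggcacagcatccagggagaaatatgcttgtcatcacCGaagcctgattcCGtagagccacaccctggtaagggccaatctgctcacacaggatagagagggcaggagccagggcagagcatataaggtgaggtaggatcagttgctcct
Hbb-bh2: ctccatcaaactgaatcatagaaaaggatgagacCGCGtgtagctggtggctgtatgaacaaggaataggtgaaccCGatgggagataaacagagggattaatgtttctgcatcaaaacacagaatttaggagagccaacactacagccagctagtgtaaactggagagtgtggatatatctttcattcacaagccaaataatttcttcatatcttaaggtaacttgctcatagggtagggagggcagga
Hbb-y: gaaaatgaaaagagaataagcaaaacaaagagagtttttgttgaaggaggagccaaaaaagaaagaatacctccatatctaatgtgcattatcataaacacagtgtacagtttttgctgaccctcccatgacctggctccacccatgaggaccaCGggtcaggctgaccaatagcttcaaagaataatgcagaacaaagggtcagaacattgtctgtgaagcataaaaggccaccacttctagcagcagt
Olfr66: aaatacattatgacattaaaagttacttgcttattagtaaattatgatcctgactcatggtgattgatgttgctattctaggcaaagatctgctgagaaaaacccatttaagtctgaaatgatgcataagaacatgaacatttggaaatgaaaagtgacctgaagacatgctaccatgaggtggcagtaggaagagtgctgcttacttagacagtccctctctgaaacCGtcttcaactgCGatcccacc
The letters CG, which read the same on both strands, occur 0 times before Hbb-bt, 2 times before Hbb-bs, 3 times before Hbb-bh2, 1 time before Hbb-y, and 2 times before each of Olfr67 and Olfr66. Among the 207 chromosome 7 olfactory receptor promoters of the same length, the median was 1 CG, and 55.6% held any. Among all 32851 promoters of the same length the median was 6, and 92.1% held at least 1.

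The ratio of MeDIP to input was taken as log2 of red over green, with each array centred on its own median, so that 0 is the array's typical probe. All values and differences below are on this log2 scale. A spot is called dim where its signal was not well above background by the scanner software. Over all non-control probes, 77.3% to 85.7% per array had a MeDIP signal that was not dim, and 94.4% to 96.4% had such an input signal. In the cluster, 27.0% to 40.4% of MeDIP spots per array and 7.43% to 12.6% of input spots were dim, with the fewest dim MeDIP spots on obesity array 2. The number of arrays limits the precision.

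The cluster had a low MeDIP level. The median of the 260 mean ratios was -0.68, against -0.06 over all 22574 regions and -0.10 over the 1827 other regions of chromosome 7, and 231 of the 260 lay below 0. Another olfactory receptor cluster, on chromosome 2 between 85 and 90 Mb (227 regions), was lower still, at -0.91. The probes of the cluster were also long: the median of the mean probe length per region was 53.6 bp, against 48.5 bp over all regions and 56.6 bp in the chromosome 2 cluster, on an array whose probes run from 45 to 60 bp. Probes of 60 bp made up 34.8% of the cluster's probes and 13.2% of all. The median share of dim MeDIP spots was 36.7% per region, against 16.7% over all regions and 59.5% in the chromosome 2 cluster. Across the 260 regions, which share arrays and base composition, the mean ratio correlated with mean probe length at r = -0.47, and the dim MeDIP share with mean probe length at r = 0.68, both given as descriptions.

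Levels varied along the cluster. Among 11 windows of equal length, the regions between 113.1 and 113.7 Mb had the lowest median ratio, -1.52 over 6 regions, and those between 114.3 and 114.9 Mb the highest, -0.02 over 6 regions. The lowest single regions were chr7:110697745-110698578 with a mean ratio of -2.54, chr7:113467551-113469325 with -2.19 and chr7:113969794-113970623 with -1.88. The input signal at chr7:113467551-113469325 was well above the array median on every array, between 1.35 and 1.82, while its MeDIP signal lay between -0.53 and -0.34. Its ratio was -2.22, -2.21 and -1.93 on the inulin arrays and -2.19, -2.29 and -2.28 on the obesity arrays, so the ratio was low in both groups, with a difference of 0.13 ± 0.09 (SE, n = 3 per group; limma adjusted p = 0.374). The other low regions had higher ratios on every inulin array. At chr7:113969794-113970623 the ratio was -1.80, -1.54 and -1.51 in inulin and -2.07, -2.11 and -2.26 in obesity, a difference of 0.53 ± 0.10 (SE, n = 3 per group; limma adjusted p = 0.0236). Its input was lower on every inulin array, with a mean of -0.92 against 0.074 (limma adjusted p = 0.0284). With all arrays set to equal spread the ratio difference was 0.12, not past the threshold of an adjusted p under 0.05. At chr7:110697745-110698578 the ratio was -2.24, -2.55 and -2.21 in inulin and -2.61, -2.90 and -2.73 in obesity. That difference, 0.41 ± 0.11 (SE, n = 3 per group; limma adjusted p = 0.0577), did not pass, and it turned to -0.15 at equal spread.

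**Figure D1:**
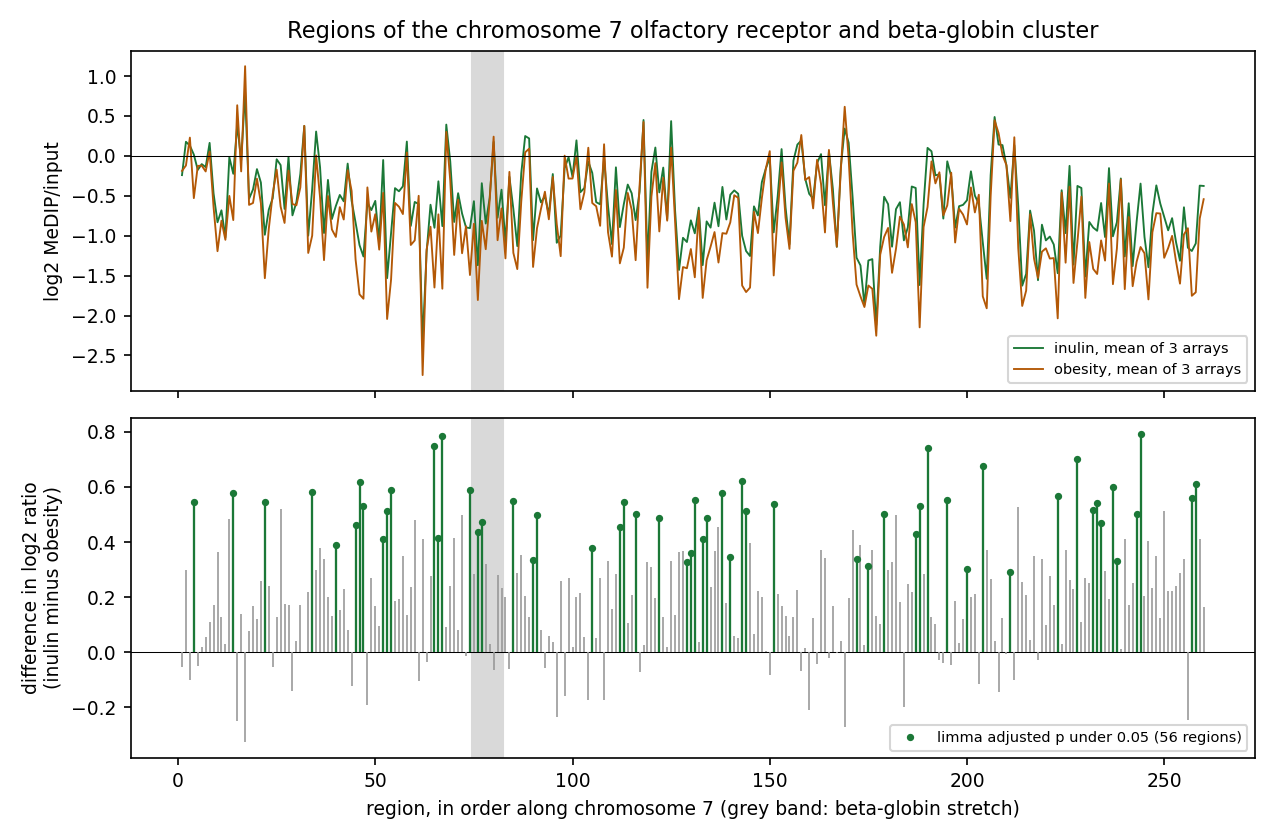
Mean log2 MeDIP/input ratio of the 3 inulin and the 3 obesity arrays (upper panel) and the difference inulin minus obesity (lower panel) for the 260 regions in order along chromosome 7. Both groups follow the same profile, the mean ratio lies below 0 in 231 of the 260 regions, the grey band marks the 8 regions of the beta-globin stretch, and the 56 regions past the threshold (green points) are spread over the whole cluster.

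The question behind the comparison is whether giving the dams inulin left a difference in the offspring's hypothalamic methylation. In the cluster, the inulin arrays had less negative ratios. The median ratio over the 260 regions was -0.67, -0.57 and -0.51 on the inulin arrays (mean -0.59 ± 0.08, SD, n = 3) and -0.73, -0.90 and -0.83 on the obesity arrays (-0.82 ± 0.08, SD, n = 3). Every inulin array lay above every obesity array. The difference was above 0 in 222 of 260 regions (85.4%), against 57.3% of all regions and 94.7% in the chromosome 2 cluster. Its median was 0.22, against 0.03 over all regions and 0.35 in the chromosome 2 cluster.

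By limma with Benjamini-Hochberg adjustment over all 22574 regions, 56 of the 260 regions (21.5%) were higher in inulin, where 5.61% of all regions were, and 0 were lower, where 1.81% of all were. At an unadjusted p under 0.05, limma gave 124 higher (19.0% of all regions) and 5 lower (9.6% of all regions). The groups did not overlap, with inulin higher, in 124 regions (47.7%, against 20.8% of all regions). The share called higher was 5.69% in the rest of chromosome 7 and 30.8% in the chromosome 2 cluster. The 56 called differences ran from 0.29 to 0.79 with a median of 0.52. Calls lay singly (23), in neighbouring pairs (9) and in neighbouring triples (5).

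The count rested on which arrays and scale were used. Without any 1 of the inulin arrays limma called 0 of the 260 regions, as of all regions (0.0%), with 112, 99 and 99 of the 260 higher at an unadjusted p under 0.05 when array 1, 2 or 3 was left out. Of all regions, 14.4%, 13.7% and 16.0% were higher at that p in the same fits. Without obesity array 3 the count was 22 (2.29% of all regions). The ratios of all regions spread less on the inulin arrays (interquartile range 0.71 to 0.78) than on the obesity arrays (0.85 to 0.98). With all arrays set to equal spread, 11 regions were higher (2.15% of all regions) and 2 lower (1.89%), and the median difference was 0.074. Quantile normalization gave 8 higher (1.11% of all regions) and 1 lower (1.09%). The authors' deposited table gave 1 higher (1.1% of all regions) and 1 lower (1.48%). The 3 inulin arrays shared a scan that held no obesity array, and the obesity arrays came from 2 other scans, so scan and group cannot be told apart. With the scan as a random block 0 regions were called and 95 were higher at an unadjusted p under 0.05, as were 12.7% of all regions.

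**Figure D2:**
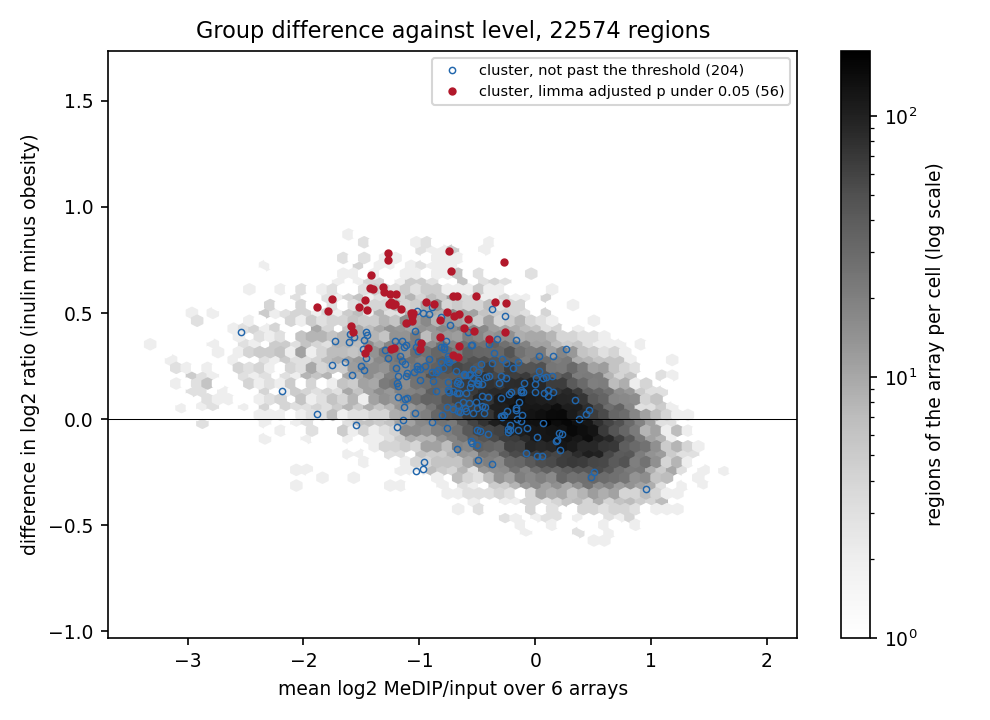
Difference in log2 ratio (inulin minus obesity) against the mean log2 ratio of 6 arrays for all 22574 regions (grey cells, darker for more regions) and the 260 regions of the cluster. Differences were larger at lower levels over the whole array, and the 56 called regions of the cluster (filled points) lie at mean ratios below 0.

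Level went with the calls. All regions were split into 5 equal classes by mean ratio. The lowest class, up to -0.63, held 143 regions of the cluster, of which 47 (32.9%) were called higher. In the same class, 17.2% of the regions outside the cluster were called higher. In the next class, up to -0.21, the shares were 12.9% of 70 regions and 6.32%. In the upper 3 classes, with 28, 14 and 5 regions of the cluster, 0 were called, against 2.63%, 1.02% and 0.27% of the others. The test of a difference between these shares was not made.

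Probe length went with the calls too. Of the 44 regions of the cluster with a mean probe length under 50 bp, 1 (2.27%) was called higher, against 1.69% of the regions outside it. From 50 to under 55 bp, the class that holds most of the cluster, 28 of 134 (20.9%) were, against 8.62% of the others. From 55 to under 58 bp, 30.9% of the cluster's 68 regions and 23.4% of the others were called higher, and from 58 to 60 bp the shares were 42.9% of 14 and 39.5%. With probes of 60 bp left out, 7 regions were higher (1.12% of all regions) and 3 lower (1.37%) of the 257 left, and the median difference was 0.036. A region was kept in that fit with any probe left, even if fewer than 3. The parts of level, probe length and dim spots in the difference were not tested apart from one another.

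Single probes showed the same gradient. The 364 tested probes of 45 bp had a median difference of -0.06, and 5.54% of their MeDIP spots were dim. The 651 tested probes of 60 bp had a median difference of 0.52, and 70.1% of their MeDIP spots were dim. Over the whole array the medians were -0.11 at 45 bp and 0.41 at 60 bp. The 60 bp probes of the cluster were lower in input (median difference -0.34) and higher in MeDIP (0.29) in the inulin group. All 60 bp probes of the array leaned the same way, by -0.19 in input and 0.27 in MeDIP. The median MeDIP signal of the cluster's 60 bp probes was -3.11, -3.01 and -3.28 on the inulin arrays and -3.13, -3.09 and -3.22 on the obesity arrays, so the groups overlapped in MeDIP. Their median input signal was -1.84, -1.82 and -2.08 in inulin and -1.61, -1.52 and -1.60 in obesity, with every inulin array below every obesity array.

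**Figure D3:**
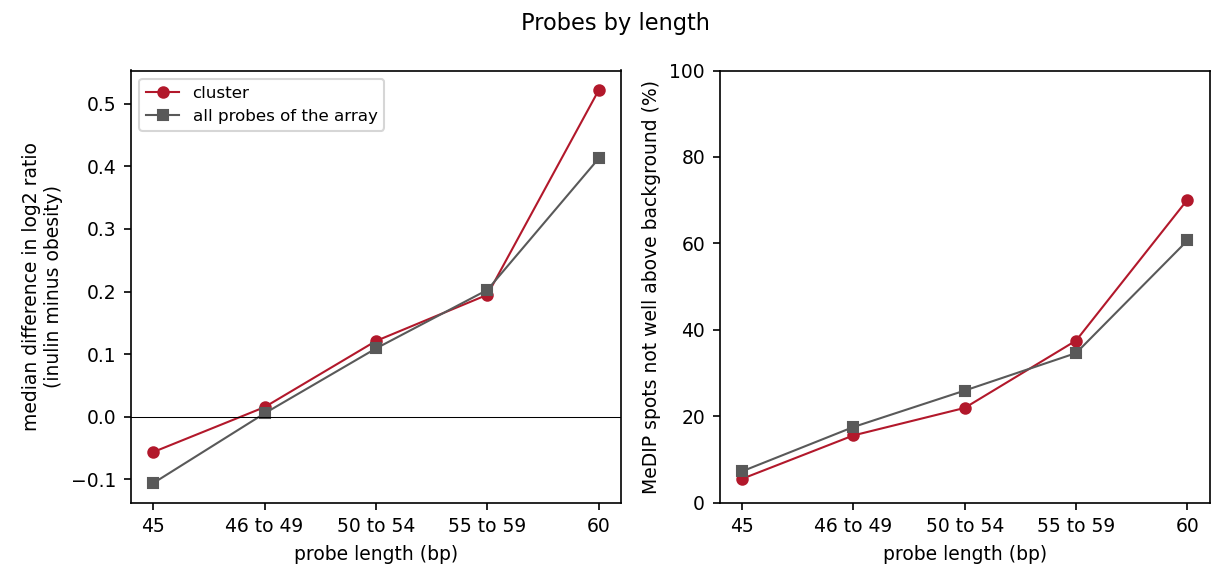
Median difference in log2 ratio (left) and share of dim MeDIP spots (right) by probe length in bp, for the probes of the cluster and for all probes of the array. Both measures climb with probe length in the cluster and over the array, to 0.52 and 70.1% for the cluster's 60 bp probes.

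Of 1854 probes tested in the cluster, 205 (11.1%) were higher in inulin by limma, where 5.12% of all probes were, and 25 (1.35%) were lower, where 3.08% of all were. Equal spread gave 62 higher (1.72% of all probes) and 26 lower (1.79%). Quantile normalization gave 54 (1.28%) and 18 (1.42%), and the authors' deposited table gave 31 (1.21%) and 26 (1.56%). Without inulin array 1, 2 or 3 the probes called higher were 23, 15 and 30, against 0.469%, 0.368% and 0.97% of all probes. Without obesity array 1 or 3 they were 96 and 94, against 2.27% and 2.55% of all. Among the higher calls 66.8% were 60 bp probes, and among the lower calls 8.0%. Of the higher calls, 43.4% had no array with MeDIP well above background, as had 25.6% of all tested probes. Where both channels were well above background on at least 4 of 6 arrays, 85 of 1130 probes (7.52%) were higher, against 3.56% of such probes over the array, and 20 (1.77%) were lower, against 3.13%.

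Among those well-measured probes, the higher one with the lowest p was the 60 bp probe at chr7:110820412-110820471. Its ratio was -1.28, -1.22 and -1.11 on the inulin arrays and -2.12, -2.31 and -2.38 on the obesity arrays, a difference of 1.06 ± 0.12 (SE, n = 3 per group; limma adjusted p = 0.0108). The groups lay far apart, yet the mean of the 8 probes of its region differed by 0.08 (adjusted p = 0.691). The probes at chr7:109643640-109643699 and chr7:110189910-110189965 followed, with differences of 1.29 and 0.92. The lower probe with the lowest p was a 45 bp probe at chr7:112892633-112892677, with ratios of 0.21, -0.04 and 0.24 in inulin and 0.87, 1.11 and 0.84 in obesity. Its difference was -0.80 ± 0.14 (SE, n = 3 per group; limma adjusted p = 0.0236), while its region of 7 probes differed by -0.0021. MeDIP at this probe was well above background on 4 of 6 arrays, the fewest that the choice of well-measured probes allowed. The next lower probes, at chr7:112515551-112515599 and chr7:113222815-113222861, differed by -0.65 and -0.79, in regions whose means differed by 0.13 and 0.03. The differences (inulin minus obesity) of the 3 regions that hold these lower probes thus lay between -0.0021 and 0.13.

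The beta-globin stretch was low like its surroundings except for 1 region. Its 8 regions had a median ratio of -0.64, a median probe length of 53.0 bp and a median dim MeDIP share of 40.2%, and 7 of the 8 lay below 0. The exception, chr7:110975950-110977087 (6 probes, mean length 47.5 bp), had every MeDIP and input spot well above background. Its ratio was 0.22, 0.23 and 0.08 on the inulin arrays and 0.26, 0.26 and 0.20 on the obesity arrays. The groups overlapped, and the difference was -0.07 ± 0.07 (SE, n = 3 per group; limma adjusted p = 0.594).

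Of the 8 regions, 2 were called higher in inulin. At chr7:110926358-110927237 (5 probes, 40.0% of MeDIP spots dim) the ratio was -0.38, -0.36 and -0.28 in inulin and -0.74, -0.89 and -0.80 in obesity. The groups were apart, with a difference of 0.47 ± 0.07 (SE, n = 3 per group; limma adjusted p = 0.0183). The MeDIP signals of the groups overlapped there (difference 0.07), while the input signal was lower on every inulin array, -1.24 to -1.12, than on the obesity arrays, -0.86 to -0.67. At equal spread this difference was 0.34, still past the threshold, and without 60 bp probes it was 0.28, not past it.

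The other called region, chr7:110919671-110920140, has 3 probes, all of 60 bp. MeDIP was well above background on at least 1 array of the group for 1 of them in inulin and 2 in obesity. The region's ratio was -1.41, -1.45 and -1.25 in inulin and -1.73, -1.84 and -1.85 in obesity, a difference of 0.44 ± 0.08 (SE, n = 3 per group; limma adjusted p = 0.0236). The groups were apart on the ratio and overlapped in each channel. At equal spread the difference was 0.09, not past the threshold, and without 60 bp probes the region has no value.

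The 5 other regions did not pass in the fit with all probes. Inulin lay above obesity on every array at chr7:110939845-110941590 (difference 0.32 ± 0.11, SE, n = 3 per group; limma adjusted p = 0.0927), chr7:110988546-110990238 (0.28) and chr7:110991189-110992655 (0.23). In these 3 regions the MeDIP signal was the higher on every inulin array, and the input signals of the groups overlapped. The groups overlapped at chr7:110905506-110906746 (0.28) and chr7:110961941-110963609 (0.03), where inulin array 1 had the lowest ratio of its group, -0.85 and -0.82. The first of these holds 6 probes, 83.3% of them of 60 bp. Without those, 1 probe was left, fewer than the 3 that make a region here. With that probe alone the difference was 0.83 and passed (limma adjusted p over the region's alternatives 0.0353 to 0.623). At chr7:110939845-110941590 the difference passed with normexp background correction, at 0.18, and with the replicate number as a block (limma adjusted p over its alternatives 0.0324 to 0.569). The direction at chr7:110961941-110963609 turned in several alternatives, such as -0.09 at equal spread.

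**Figure D4:**
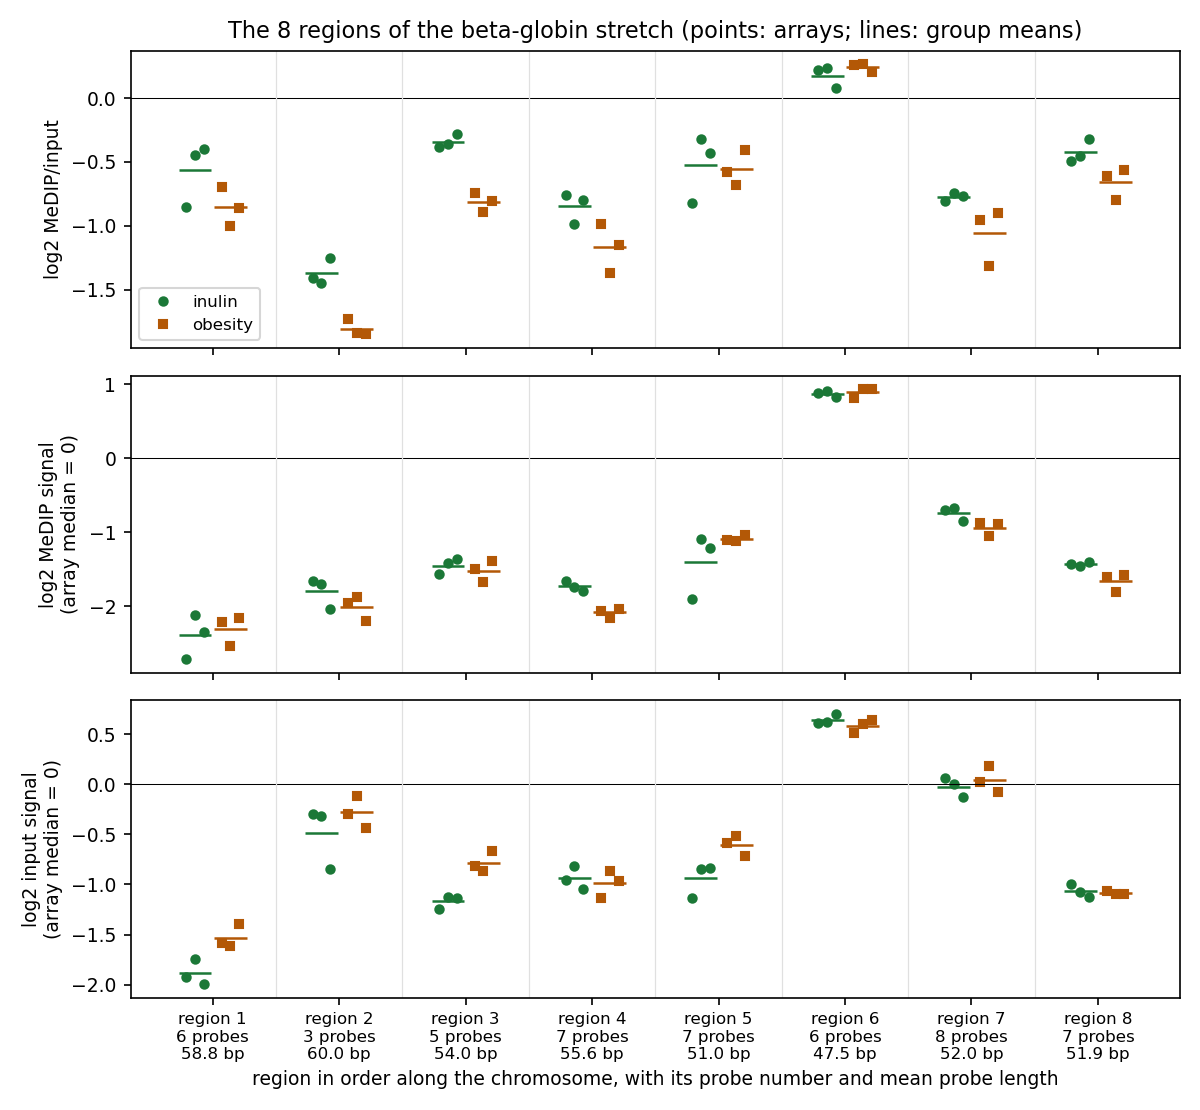
Log2 MeDIP/input ratio, log2 MeDIP signal and log2 input signal (both centred on the array median) on each of the 6 arrays for the 8 regions of the beta-globin stretch in chromosomal order, with group means as lines. Regions 2 and 3 are the called ones, and region 6 is the only one with a ratio above 0.

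The 5 largest called differences of the cluster lay in regions with 43.8% to 91.7% of MeDIP spots dim. At chr7:115686744-115688354 (8 probes, 58.3% of MeDIP spots dim) the ratio was -0.37, -0.21 and -0.46 in inulin and -1.03, -1.10 and -1.29 in obesity, a difference of 0.79 ± 0.10 (SE, n = 3 per group; limma adjusted p = 0.0145). The input signal there was -1.94, -2.07 and -2.08 in inulin and -0.69, -0.64 and -0.62 in obesity. Input was thus lower in inulin by 1.38 on the log2 scale (difference -1.38 ± 0.07, SE, n = 3 per group; limma adjusted p = 0.00637), and MeDIP was lower as well (-0.60). Without 60 bp probes the ratio difference was 0.12.

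At chr7:110750814-110752553 the difference was 0.78 ± 0.11 (SE, n = 3 per group; limma adjusted p = 0.0146), with 91.7% of MeDIP spots dim. MeDIP was well above background on at least 1 array of the group for 1 of its 8 probes in inulin and 2 in obesity. Probes of 60 bp made up 87.5% of the region, so without them 1 probe was left, with a difference of 0.14. With dim input spots left out the region's difference was 0.39, and neither value passed the threshold. At chr7:110731479-110732974 the difference was 0.75 ± 0.15 (adjusted p = 0.0284), and it turned to -0.07 when only spots well above background in both channels were kept and to -0.14 without 60 bp probes. At chr7:114007196-114007748, with 3 probes of 60 bp, the difference was 0.74. In each group MeDIP was well above background on at least 1 array for 1 of these probes. At chr7:115245596-115246295, called as well, the MeDIP signal of all 3 probes was not well above background on any inulin array, so no difference is given.

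The 4 regions of the cluster with the brightest input were well measured. They were chosen after their values were seen, as the regions whose mean input signal lay more than 2 above the array median. All 4 had every MeDIP spot well above background, mean probe lengths of 48.3 to 50.6 bp and low ratios, and all 4 were called higher in inulin. Outside the cluster, 74 of 573 regions with such bright input (12.9%) were called higher. At chr7:112004833-112005881 the ratio was -0.98, -0.96 and -0.96 in inulin and -1.45, -1.50 and -1.61 in obesity, a difference of 0.55 ± 0.07 (SE, n = 3 per group; limma adjusted p = 0.0146). The inulin arrays were nearly equal and all above the obesity arrays, and without 60 bp probes the difference was 0.51. At equal spread it was 0.28 and not past the threshold. In the authors' deposited table this was the only region of the cluster called higher in inulin.

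At chr7:110564558-110565517 the ratio was -0.93, -0.97 and -0.98 in inulin and -1.68, -1.50 and -1.46 in obesity, a difference of 0.59 ± 0.08 (SE, n = 3 per group; limma adjusted p = 0.0146). MeDIP was higher on every inulin array there, with a difference of 0.74, and the input signals overlapped. At equal spread the ratio difference of this region was 0.32, not past the threshold. The differences were 0.62 at chr7:110400534-110402079 and 0.36 at chr7:111990531-111992089, and 0.31 and 0.15 at equal spread, where neither passed. Of the 27 regions of the cluster with every MeDIP spot well above background, 6 (22.2%) were called higher, against 3.2% of the 4033 such regions of the array. Their median ratio was -0.29, against 0.33 over the array's.

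The regions with the highest ratios leaned the other way without passing. They were also those with the largest lower differences. At chr7:109846757-109847206 (3 probes of 45 bp, every spot well above background) the ratio was 0.92, 0.82 and 0.66 in inulin and 1.24, 1.18 and 0.95 in obesity. The groups were apart, with a difference of -0.33 ± 0.10 (SE, n = 3 per group; limma adjusted p = 0.0769). In the authors' deposited table this region passed, with a difference of -0.27 in that table's own units. It also passed under normexp background correction (-0.35) and with the replicate number as a block. At equal spread the difference was -0.12 and under quantile normalization -0.16, neither past the threshold. At chr7:112935836-112937298 the difference was -0.27 and at chr7:109835356-109836695 it was -0.25, with the groups apart in both.

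The regions with the most probes showed no call. At chr7:112883806-112887176, where all 16 probes were well above background in both channels on every array, the ratio was -0.45, -0.51 and -0.28 in inulin and -0.58, -0.65 and -0.51 in obesity. The groups overlapped, with a difference of 0.17 ± 0.08 (SE, n = 3 per group; limma adjusted p = 0.227). At chr7:113220887-113223915 (14 probes) the difference was 0.03, and it was -0.39 at equal spread, past the threshold as lower. At chr7:111462258-111465173 (12 probes) it was 0.16, and -0.10 at equal spread.

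A pair of tracts 256 kb apart carried probes in the same layout. The regions chr7:113075928-113078334 and chr7:113332336-113334742 both hold 10 probes over 2407 bp, and the ratios were -1.36, -1.19 and -1.28 in inulin and -1.50, -1.61 and -1.73 in obesity in the first. In the second they were -1.34, -1.24 and -1.34 in inulin and -1.54, -1.61 and -1.73 in obesity. The differences, 0.34 and 0.31, both passed (limma adjusted p = 0.0455 and 0.0441). A second pair, chr7:113101982-113103644 and chr7:113358352-113360014, holds 8 probes over 1663 bp, with differences of 0.39 and 0.37 that did not pass. Whether these tracts share sequence was not tested, so they may not be independent.

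The channels were also read apart. Over the 260 regions the median input signal was -0.43, -0.46 and -0.61 on the inulin arrays and -0.41, -0.27 and -0.43 on the obesity arrays. The median MeDIP signal was -1.15, -1.13 and -1.20 in inulin and -1.19, -1.23 and -1.28 in obesity. Input was lower on each inulin array than on each obesity array, with inulin array 1 and obesity array 3 nearly equal, and the MeDIP medians of the groups overlapped. The median difference over the 260 regions was -0.10 in input and 0.079 in MeDIP, and their order in size depended on the arrays. Without inulin array 3 they were -0.053 and 0.12, and without obesity array 2 they were -0.070 and 0.084. Of the 56 regions called on the ratio, MeDIP was higher and input lower in 37, both were lower in 14 and both higher in 5, and input differed by more than MeDIP in 40.

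By limma on input alone, 7 regions (2.69%) were lower in inulin, where 0.899% of all regions were, and 0 were higher, where 1.24% of all were. At an unadjusted p under 0.05 there were 67 lower (25.8%, against 8.8% of all) and 10 higher (15.6% of all). On MeDIP alone 0 regions were higher, where 0.155% of all were, and 1 was lower, where 0.0975% of all were, with 41 higher (15.2% of all regions) and 13 lower (5.78% of all regions) at an unadjusted p under 0.05. The input count fell to 1 or 2 without any 1 array. Input calls over all regions fell as well, from 279 higher and 203 lower. They were 2 higher and 4 lower without inulin array 1, and 144 higher and 44 lower without obesity array 3.

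Some regions shifted in both channels together. At chr7:111299595-111300243 (3 probes) MeDIP was -0.91, -0.90 and -0.96 in inulin and 0.54, 0.38 and 0.58 in obesity, a difference of -1.42 ± 0.08 (SE, n = 3 per group; limma adjusted p = 0.0204). Input differed by -1.23 (adjusted p = 0.0272), and the ratio by -0.17 with overlap. This MeDIP call was lost without any 1 of the inulin arrays or obesity array 1. At chr7:110507231-110508875 both channels were higher in inulin, MeDIP by 1.55 and input by 1.16, neither past the threshold. MeDIP was 0.27, 0.29 and 0.09 in inulin and -1.02, -2.01 and -0.98 in obesity, with obesity array 2 the lowest.

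Other regions set 1 array apart. At chr7:115246765-115247233 the input signal was 3.38 on obesity array 2 and 1.54 to 1.83 on the other arrays, and at chr7:112548084-112549821 it was 0.55 on obesity array 2 and 1.18 to 1.53 on the others. Of the 260 regions, 18 (6.92%) had an input range over 1 among the 6 arrays, against 8.33% of all regions. Copy number, DNA amount and labelling were not measured here.

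**Figure D5:**
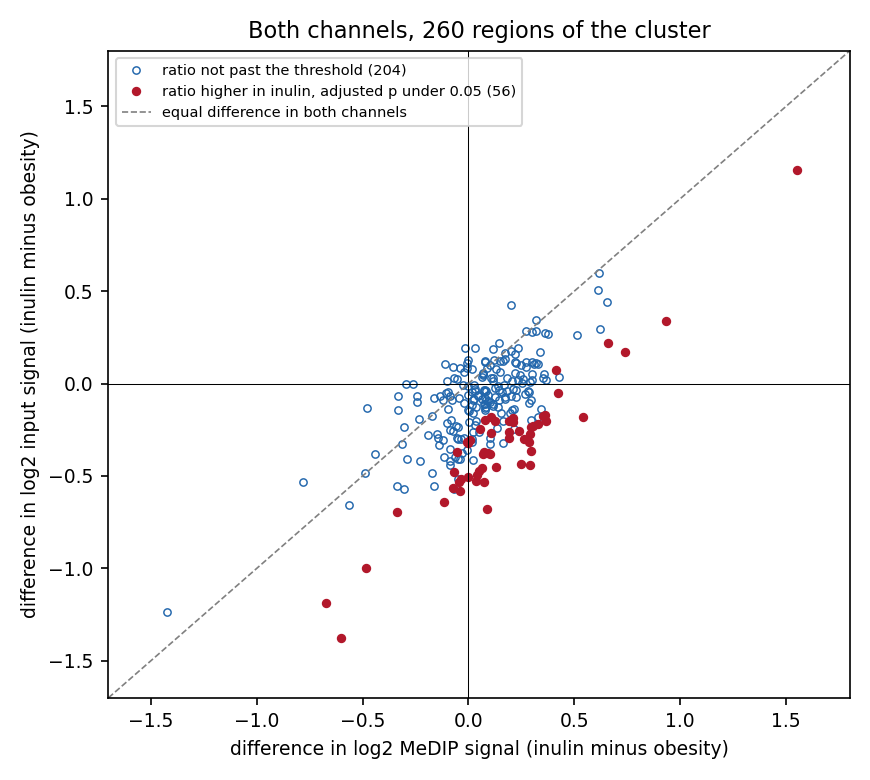
Difference in log2 input signal against difference in log2 MeDIP signal (inulin minus obesity) for the 260 regions of the cluster, with the 56 called on the ratio filled. The called regions lie below the dashed line of equal difference, most of them with lower input, and the isolated points far along that line are regions where both channels shifted together.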

How the data were processed

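The files came from 6 Agilent arrays with 2 colours, 3 per group. Per the file headers, the authors extracted the scans with Feature Extraction 11.0.1.1, with probe positions in mm9, and the deposited processed signals are intensity values after background subtraction and dye scaling. The authors' deposited table holds a score per probe whose making, log base, scale and centring are not given in the sources used here. Array by array, its correlation with the log2 ratio lay between 0.87 and 0.91, and its medians between 0.043 and 0.061.

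The log2 ratio of red to green processed signals, without outlier spots, was centred on the median of each array and averaged over the probes of a region. Each group had to have values on 2 or more arrays. The test was limma's (version 3.58.1, run in R 4.3.3; two-sided) on inulin minus obesity, over all regions or probes, p-values adjusted by Benjamini-Hochberg, threshold 0.05. Channels were tested the same way. Figures used matplotlib 3.10.9.

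The regions named are all of the beta-globin stretch, the 5 largest called differences per direction (or the 3 largest not passing), the 3 highest and 3 lowest mean ratios, and the 3 with the most probes. Named probes are, in each direction, those 3 of lowest p among called probes well above background in both channels on at least 4 of 6 arrays. The regions described for bright input, shared layout or shifts of a channel were chosen after their values were seen. The members and lists were chosen with earlier results of these data known. Alternatives were normexp (offset 50), loess, equal scale, quantile normalization, the authors' table, filters on dim spots, blocks for replicate number and scan, each array left out, the median of the probes, gaps of 300 and 1000 bp and, chosen after seeing the data, leaving out 60 bp probes.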

Additional observations from a re-analysis of the deposited data

How the results depend on the processing

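The 56 regions higher in inulin became 37 under normexp, 11 at equal scale, 8 under quantile normalization, 1 in the authors' deposited table, 23 with dim input left out, 3 with dim spots of either channel left out, 0 with the scan as a random block, 18 with probe medians in place of means and 7 without 60 bp probes. With each array left out in turn the count was 0 to 58. Loess (63), the replicate block (80) and gaps of 300 bp (50) and 1000 bp (54) stayed within 1.5 times the main count. Over all regions the higher calls moved too, from 1267 to 1027 under normexp and 645 with dim input left out. They were 94 with dim spots of either channel left out, 471 with probe medians, 1909 under loess and 2133 with the replicate block. Gaps of 300 and 1000 bp gave 1176 and 1329 over all regions, and leaving an array out gave 0 to 1507. The 0 lower regions became 2 under normexp, 2 at equal scale, 1 under quantile normalization, 1 in the authors' table, 1 with the replicate block, 1 with a gap of 300 bp, 3 without 60 bp probes and 0 to 1 with an array left out. Of all regions, 408 were lower in the main fit, 894 under normexp and 566 with the replicate block. Of the 56, 11 were among the calls at equal scale and 44 had a difference above 0 in the authors' table. The median difference, 0.22, became 0.090 under normexp, 0.074 at equal scale, 0.072 under quantile normalization and 0.036 without 60 bp probes. It was 0.17 to 0.27 with an array left out. In the authors' table it was 0.0017, in that table's own units. The probes called higher became 322 under normexp, 62 at equal scale, 54 under quantile normalization, 31 in the authors' table, 10 with the scan block and 15 to 208 with an array left out. The probes called lower became 72 under normexp, 46 under loess, 0 with the scan block and 0 to 38 with an array left out. Of all probes, 8712 were higher and 5244 lower in the main fit, and 13640 and 13450 under normexp. Loess gave 8031 lower over all probes, and the scan block 298 higher and 38 lower. The 1 call on MeDIP became 3 at equal scale, 0 with the replicate block, 0 with the scan block and 0 to 2 with an array left out. The 7 calls on input became 2 under normexp, 16 at equal scale, 0 with the replicate block, 3 with the scan block and 1 to 2 with an array left out. Over all regions, MeDIP calls were 35 higher and 22 lower, and 65 and 44 at equal scale. Input calls over all regions were 279 higher and 203 lower, 87 and 86 under normexp, and 439 and 326 at equal scale. The replicate block gave 0 calls over all regions on either channel, and the scan block 68 higher and 68 lower on input. Whether the replicate numbers pair the arrays is not settled by these values. Deviations of same-numbered arrays correlated at -0.14, 0.28 and 0.33, and those of differently numbered arrays at -0.38 to 0.22. With the number as a block 80 regions were higher and 1 lower.

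Directions that turned were these. The region chr7:110731479-110732974 (0.75) gave -0.072 with both channels above background and -0.14 without 60 bp probes. Of the regions that did not pass, chr7:110697745-110698578 gave -0.15 at equal scale and chr7:110975950-110977087 gave 0.15 with probe medians. The region chr7:110961941-110963609 gave -0.092 at equal scale, -0.10 under quantile normalization, -0.024 with dim input left out, -0.12 with both channels above background, -0.13 without 60 bp probes and -0.073 to 0.18 with an array left out. The region chr7:111462258-111465173 gave -0.10 at equal scale, -0.10 under quantile normalization, -0.088 in the authors' table and -0.036 with probe medians. The region chr7:113220887-113223915 gave -0.027 under normexp, -0.39 at equal scale, -0.29 under quantile normalization, -0.26 in the authors' table, -0.085 without 60 bp probes and -0.035 to 0.084 with an array left out. The region chr7:113467551-113469325 gave -0.0011 under normexp, -0.35 at equal scale, -0.19 under quantile normalization, -0.20 in the authors' table, -0.069 with both channels above background and -0.16 without 60 bp probes. The cause of these changes was not tested.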
